A study of Homo sapiens with 8 samples.

Results

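The BCL2 family decides whether a cell opens its mitochondria and dies, and 10 of its genes are described here across 8 RNA libraries of KCL-22, a cell line from human chronic myeloid leukemia in blast crisis. The 10 genes were chosen by name, from the roles that the family is known for, with earlier results of these data known. Each was found as 1 of the 31402 entries of the deposited expression table. None of the symbols was repeated, and all 10 had a mean of at least 1 FPKM (fragments scaled by transcript length and library depth), the limit set for testing, as did 11843 genes in all. Members are survival genes (BCL2, BCL2L1, MCL1 and BCL2A1), BH3-only death genes (BCL2L11, BBC3, PMAIP1, BIK and BID) and 1 effector (BAX).

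KCL-22 is driven by BCR-ABL, a fused tyrosine kinase, and the study asked which cells give rise to resistance when this kinase is inhibited. Every library came from cells carrying ClonTracer, a library of DNA barcodes that is passed on to daughter cells. The vehicle population (n = 1) was held in 0.1% DMSO for 7 days. Resistant populations were grown in imatinib (2.5 µM, 27 days), nilotinib (0.3 µM, 27 days) or GNF-2 (2.5 µM, 21 days), with 1 library each. Imatinib and nilotinib block the catalytic site of the kinase, and GNF-2 binds the kinase elsewhere, as an allosteric inhibitor. The other 4 libraries are clones, each grown from 1 cell sorted by flow cytometry. Clone 3 was taken from the imatinib population, resists imatinib and nilotinib and had not met an allosteric inhibitor. Clones 1, 2 and 4 were taken from the GNF-2 population and had not met a catalytic inhibitor; the first 2 resist GNF-2, and Clone 4 resists all 3 compounds. By resistance the libraries form the vehicle (n = 1), catalytic-resistant (imatinib population, nilotinib population and Clone 3, n = 3), GNF-2-resistant (GNF-2 population and Clones 1 and 2, n = 3) and all-resistant (Clone 4, n = 1) groups.

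Each group therefore mixes clones with populations, the clones share descent with the population they came from, and the labels do not say whether the libraries of a group were otherwise separate cultures. The p-values measure only the spread between these libraries. Compound and time under treatment differ together from the vehicle and cannot be told apart. The RNA is of whole cultures, so fewer cells with a transcript and less of it per cell cannot be told apart either. Rough depth, read from the smallest step of FPKM in intronless genes, was 17500000 to 38300000 fragments a library, and FPKM summed to 493644 to 579873. Of 7 myeloid blast markers 5 reached 1 FPKM somewhere, and 2 (LYL1 and PTPRC) did so in all libraries. KIT was at or near 0 throughout, and CSF2RB was at most 0.324. SPI1 was at 29.9 FPKM in the vehicle and listed at 0 in Clones 3 and 4, CD33 was at 0.157 to 3.35 and CD34 at 0.378 to 12.2. The summed level was 210.1 FPKM in the vehicle and 93.6 to 156.0 in the resistant libraries. It was carried mostly by LYL1 and PTPRC (89.2 and 88.0 FPKM in the vehicle). Defining genes of red cells (HBB), B cells (MS4A1), fibroblasts (DCN) and epithelium (KRT19, CDH1) were at or near 0 in all 8 libraries. Other genes of those lists were present: CD79A at 17.4 to 98.9 FPKM, CD79B at 18.3 to 53.3, KRT18 at 23.7 to 81.2, EPOR at 2.15 to 6.11 and COL1A2 at up to 4.61 (in Clone 2). The platelet gene GP9 was at 20.3 to 118.6 FPKM and the monocyte gene CD14 at 0.285 to 34.6, highest in Clone 3. The T cell list was carried by CD3D alone, at 32.0 FPKM in the vehicle and 0 to 12.4 elsewhere, with CD3E, CD3G and CD2 near 0.

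In a living cell, survival proteins of the family hold BAX and its relative BAK1 in check at the outer mitochondrial membrane. BH3-only proteins are made or released under stress; they bind the survival proteins, and some of them push BAX directly, so that the membrane opens, cytochrome c leaks out and caspases are switched on. In chronic myeloid leukemia, signaling from BCR-ABL is known to sustain survival proteins through STAT5 and to keep BCL2L11 (BIM) low, and BIM mediates much of the death that follows when the kinase is blocked.

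The promoters of BCL2A1 and BCL2L11 are shown because these are the members whose transcripts were below the vehicle in all 7 resistant libraries. Both runs are the 250 bases before the RefSeq start site on GRCh38.p14, on the strand of the gene, 5′ to 3′. Capitals mark matches to letters searched on both strands: TTCNNNGAA (STAT), GTAAACA (FOXO), TGATGNAA (ATF4 with CEBP) and, for the core promoter box, TATAAA.
BCL2A1, chr15:79971197-79971446, minus strand: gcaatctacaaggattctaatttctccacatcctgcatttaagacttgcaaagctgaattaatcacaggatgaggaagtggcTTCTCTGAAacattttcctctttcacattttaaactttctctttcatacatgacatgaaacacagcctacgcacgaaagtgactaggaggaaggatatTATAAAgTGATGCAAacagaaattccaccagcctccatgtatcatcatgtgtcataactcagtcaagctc
BCL2L11, chr2:111120664-111120913, plus strand: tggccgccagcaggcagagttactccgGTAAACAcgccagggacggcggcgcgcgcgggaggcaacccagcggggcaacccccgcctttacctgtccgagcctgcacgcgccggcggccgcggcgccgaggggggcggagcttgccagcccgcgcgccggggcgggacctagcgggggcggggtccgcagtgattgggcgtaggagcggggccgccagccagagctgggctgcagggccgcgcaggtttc

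These windows differ in make-up. BCL2A1 had 2 CpG dinucleotides and a GC content of 38.8%, BCL2L11 had 34 and 76.8%, and the median of 35116 RefSeq promoters was 11 and 58%. In BCL2A1 the STAT letters began at position -168, counted back from -1 at the base before the start site, the TATA letters at -70 and the ATF4 with CEBP letters at -63. In BCL2L11 the FOXO letters began at -223. Among all promoters of this length, 6.567% held the STAT letters, 2.979% the FOXO letters, 3.144% the ATF4 with CEBP letters and 10.716% the TATA letters. The STAT letters read the same on both strands. AP-1 (TGANTCA), the E-box (CACGTG) and the NF-kB motif were searched as well, and were found in 6.573%, 6.345% and 9.961% of all promoters. Among the 6 members with a single RefSeq window (BCL2, BCL2A1, BCL2L11, BBC3, PMAIP1 and BAX), 1 held AP-1 letters (BBC3), 2 held an E-box (BBC3 once and BAX at 4 places) and 0 held the NF-kB motif. These matches are descriptions of letters and say nothing about binding.

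Among the survival genes, MCL1 was the most abundant in every library, BCL2L1 was nearly level, BCL2 was widely spread among the clones, and BCL2A1 was at its highest in the vehicle. The plot of FPKM by library shows these patterns beside those of the death genes.

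**Figure D1:**
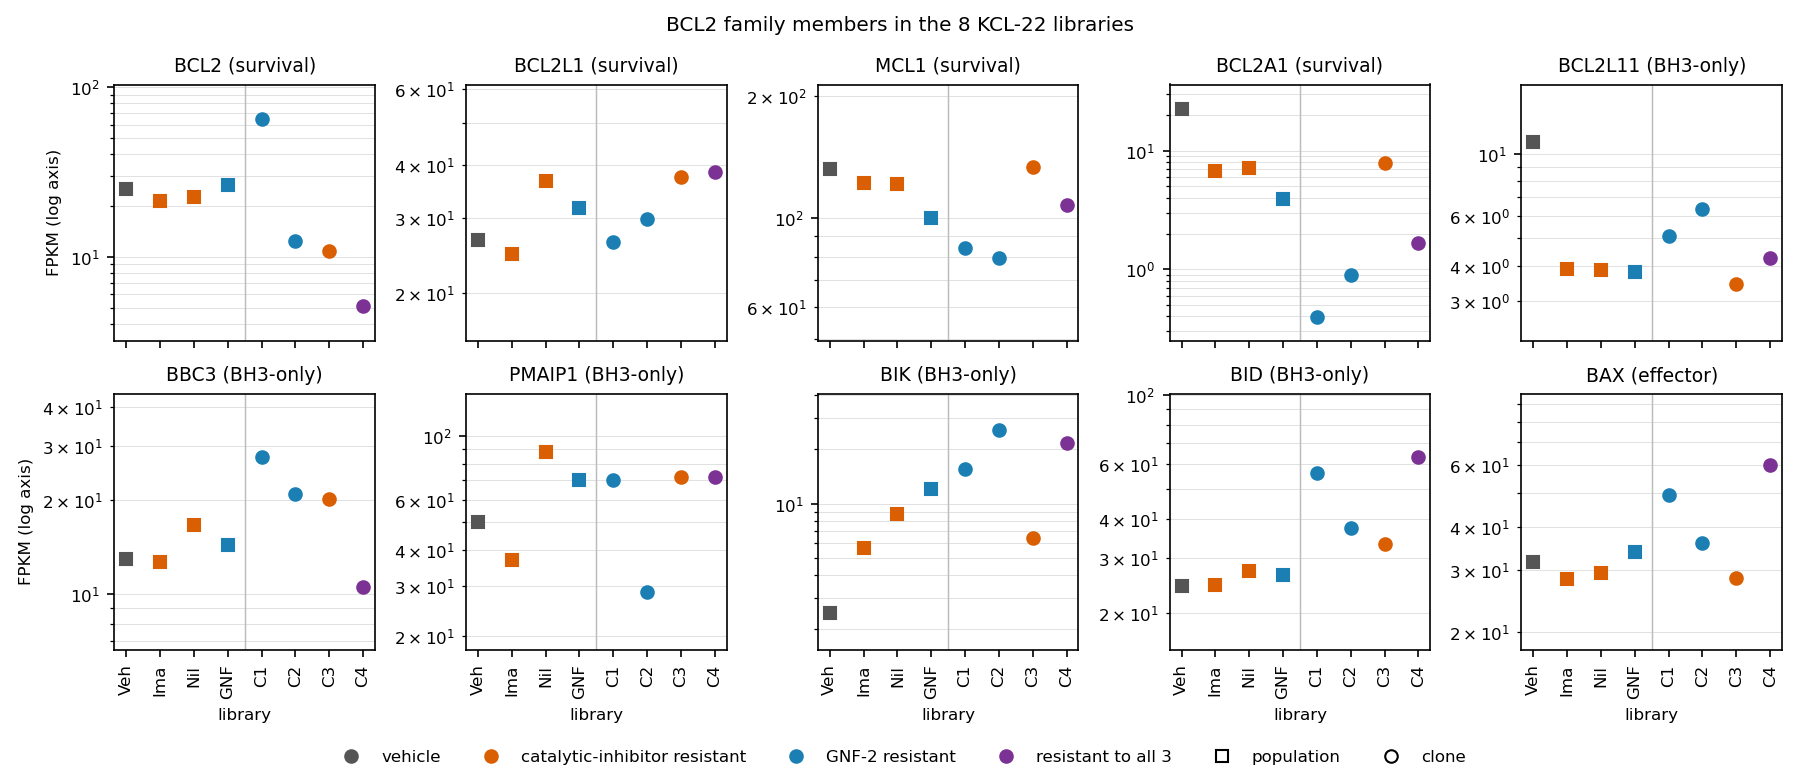
FPKM of each of the 10 members (log axis, 1 panel a gene) in the vehicle (Veh), imatinib (Ima), nilotinib (Nil) and GNF-2 (GNF) populations and in Clones 1 to 4 (C1 to C4). Each point is 1 library, squares are populations, circles are clones and color is the resistance group. BCL2A1 and BCL2L11 are highest in the vehicle, and BIK is lowest there.

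MCL1 (chromosome 1, 150547027 to 150552214, GRCh37) encodes a short-lived survival protein that binds many BH3-only partners, NOXA among them. Its level was 131.6 FPKM in the vehicle, 121.9 under imatinib, 121.0 under nilotinib and 99.96 under GNF-2. In the clones it was 83.98 in Clone 1, 79.3 in Clone 2, 133.3 in Clone 3 and 107.6 in Clone 4. The 3 catalytic-resistant libraries lay at 121.0 to 133.3 and the 3 GNF-2-resistant libraries at 79.3 to 99.96, so these groups did not overlap, and only Clone 3 was above the vehicle. The limma difference, catalytic-resistant over GNF-2-resistant on log2(FPKM + 1), was 0.52 (SE 0.14, interval 0.18 to 0.85) with an unadjusted p = 0.00839, and it did not pass after adjustment over all genes (adjusted p = 0.846).

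BCL2L1 (chromosome 20, 30252261 to 30311729) encodes BCL-XL, a survival protein under STAT5 control in erythroid and myeloid cells. It ranged from 24.7 FPKM in the imatinib population to 38.5 in Clone 4, with 26.6 in the vehicle and a median of 30.7. Its SD over the 8 libraries, 0.24 on the log2(FPKM + 1) scale, was the smallest of the 10 members, and 31.6% of the genes tested had a smaller one. The largest of its 4 limma differences in size was 0.27.

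BCL2 (chromosome 18, 60790579 to 60986657), the founding survival gene of the family, differed most among the clones. The vehicle and populations were close, at 25.0 FPKM in the vehicle, 21.2 under imatinib, 22.3 under nilotinib and 26.4 under GNF-2. Clone 1 had 64.6 FPKM, Clone 2 had 12.3, Clone 3 had 10.8 and Clone 4 had 5.10. Clones 1, 2 and 4 share the GNF-2 population as their source, so the clones from that population lie both above and below it. The highest level was 12.7 times the lowest, and the SD of 1.02 was larger than that of 94.3% of the genes tested. Means of catalytic-resistant and GNF-2-resistant libraries were 18.1 ± 6.39 and 34.5 ± 27.1 FPKM (SD, n = 3 each), and the groups overlapped (limma difference -0.66, SE 0.59, adjusted p = 0.864). That difference was -0.064 without Clone 1, -1.22 without Clone 2 and -0.34 without Clone 3.

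BCL2A1 (chromosome 15, 80253232 to 80263643), a survival gene of hematopoietic cells that is known to answer NF-kB, was the most variable member. Its level was 22.6 FPKM in the vehicle, 6.74 under imatinib, 7.18 under nilotinib and 3.93 under GNF-2. Clone 1 had 0.399 FPKM, Clone 2 had 0.894, Clone 3 had 7.93 and Clone 4 had 1.68. All 7 resistant libraries were below the vehicle, and the 3 catalytic-resistant ones (6.74 to 7.93) were above the 3 GNF-2-resistant ones (0.399 to 3.93). The vehicle exceeded the lowest library 56.8 times, and the SD of 1.35 was larger than that of 97.3% of the genes tested. Depth behind the low values is small: about 529 fragments in the vehicle but only about 14 in Clone 1, 19 in Clone 2 and 32 in Clone 4.

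The BH3-only genes differed from one another in direction. BCL2L11 was highest in the vehicle, BIK and BID were lowest there, and BBC3 and PMAIP1 varied without a common direction.

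BCL2L11 (chromosome 2, 111878491 to 111926022) encodes BIM, which binds all of the main survival proteins and can activate BAX. It had 11.0 FPKM in the vehicle, 3.89 under imatinib, 3.85 under nilotinib and 3.80 under GNF-2. Clone 1 had 5.11 FPKM, Clone 2 had 6.35, Clone 3 had 3.45 and Clone 4 had 4.26. The 3 resistant populations were thus nearly equal (3.85 ± 0.0419 FPKM, SD, n = 3), the clones scattered more widely around a mean of 4.79 ± 1.24 (SD, n = 4), and the vehicle stood above all of them. The closest library to the vehicle was Clone 2, at a log2 ratio of -0.80, and the farthest was Clone 3, at -1.67.

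BIK (chromosome 22, 43506754 to 43525718) encodes a BH3-only protein found mainly at the endoplasmic reticulum. It had 2.46 FPKM in the vehicle, 5.64 under imatinib, 8.70 under nilotinib and 12.1 under GNF-2. Clone 1 had 15.6 FPKM, Clone 2 had 25.5, Clone 3 had 6.48 and Clone 4 had 21.7. Every resistant library was above the vehicle, and the order of the groups is the reverse of that of BCL2A1: the catalytic-resistant libraries lay at 5.64 to 8.70 and the GNF-2-resistant ones at 12.1 to 25.5. Clone 4, from the GNF-2 population, lay within the range of the latter. The vehicle value rests on about 59 fragments.

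BID (chromosome 22, 18216906 to 18257431) links death receptors to the mitochondrial pathway, because caspase-8 cuts its protein into the active form. It had 24.4 FPKM in the vehicle, 24.7 under imatinib, 27.4 under nilotinib and 26.5 under GNF-2. Clone 1 had 56.4 FPKM, Clone 2 had 37.6, Clone 3 had 33.4 and Clone 4 had 63.2. All 4 clones were above all 4 populations, the vehicle included. Among the populations BID was nearly level, and the excess over the vehicle in the imatinib and GNF-2 populations turned into a deficit when libraries were rescaled by median ratios (24.3 and 24.2 against 24.9 FPKM). An entry known only by a transcript identifier overlaps BID, at a mean of 2.33 FPKM.

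BBC3 (chromosome 19, 47724079 to 47736023) encodes PUMA and is a classic p53 target. It ranged from 10.5 FPKM in Clone 4 to 27.6 in Clone 1, with 12.9 in the vehicle, 12.6 under imatinib, 16.7 under nilotinib, 14.4 under GNF-2, 21.0 in Clone 2 and 20.2 in Clone 3. Clones 1, 2 and 3 were above all populations and Clone 4 was below them all.

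PMAIP1 (chromosome 18, 57567192 to 57571538) encodes NOXA, which binds MCL1 and marks it for destruction. It had 50.0 FPKM in the vehicle, 36.9 under imatinib, 87.9 under nilotinib and 70.1 under GNF-2. Clone 1 had 70.4 FPKM, Clone 2 had 28.6, and Clones 3 and 4 had 71.8 each. The imatinib population and Clone 2 were below the vehicle and the other 5 resistant libraries above it, so each inhibitor class holds libraries on both sides. The imatinib and nilotinib populations, of 1 resistance group, held its second lowest and its highest level.

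BAX (chromosome 19, 49458117 to 49465055), the effector, forms pores in the outer mitochondrial membrane. It had 31.7 FPKM in the vehicle, 28.4 under imatinib, 29.4 under nilotinib and 33.9 under GNF-2. Clone 1 had 49.2 FPKM, Clone 2 had 35.9, Clone 3 had 28.5 and Clone 4 had 60.1. The catalytic-resistant libraries were all just below the vehicle and the GNF-2-resistant ones above it. After rescaling by median ratios the GNF-2 population was also below the vehicle (31.0 against 32.3 FPKM). BAK1, the other effector, was flatter, from 11.6 FPKM in the vehicle to 18.1 in Clone 2.

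Set against the single vehicle library, resistant libraries differed in a shared direction for 4 members. BCL2A1 and BCL2L11 were below it in 7 of 7, a pattern that 13.9% of the 11843 genes tested also had. BIK and BID were above it in 7 of 7, as were 19.8% of genes; for BID this held with quantile normalization and not with rescaling by median ratios, where 5 of 7 were above. Every one of these comparisons shares the same vehicle library, so they are not 7 separate observations. By size, BCL2A1 was at least 2-fold below the vehicle in all 7, with a vehicle level of at least 5 FPKM, as were 49 genes (0.414%). BIK was at least 2-fold above it in all 7, with at least 5 FPKM in each resistant library, as were 7 genes (0.0591%).

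**Figure D2:**
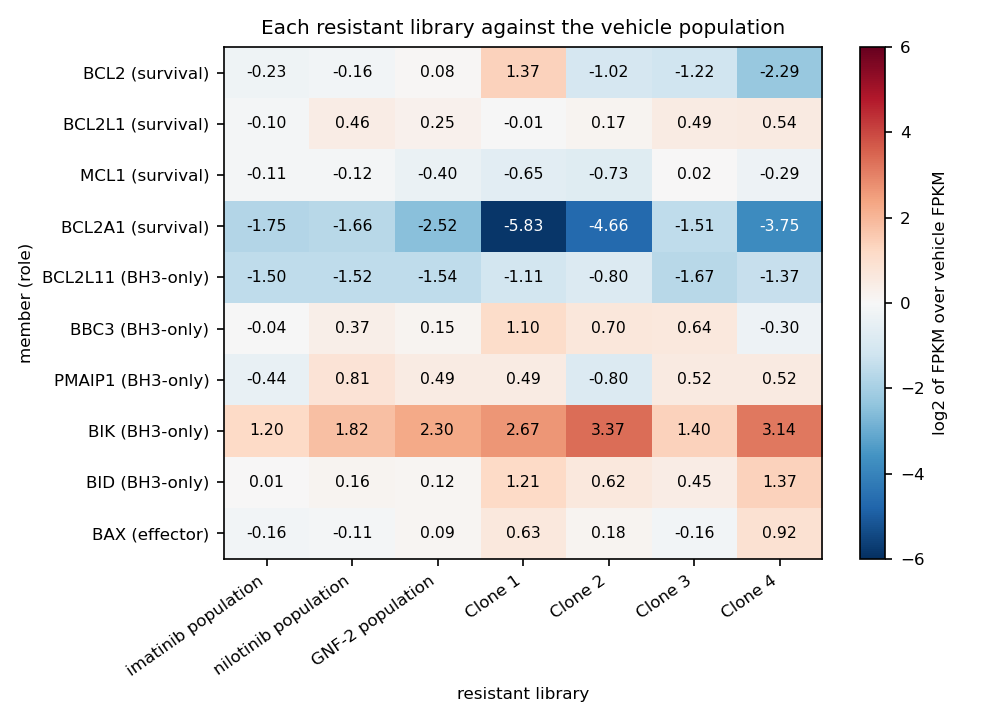
Log2 ratio of FPKM in each of the 7 resistant libraries (columns) to the vehicle population, for each member (rows, with its role), red above the vehicle and blue below it. The BCL2A1 and BCL2L11 rows are negative throughout, from -1.51 to -5.83 and from -0.80 to -1.67, and the BIK row runs from 1.20 to 3.37.

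In each resistant population the same 3 of 10 members were at least 2-fold from the vehicle: BCL2A1 and BCL2L11 were lower and BIK was higher. The share of all genes at that distance, with at least 5 FPKM in the higher library, was 3.83% for imatinib, 5.72% for nilotinib and 9.3% for GNF-2. These are single libraries with no replicate check, and the common vehicle ties the 3 sets of values together. BCL2A1 was 3.36-fold lower under imatinib, 3.15-fold lower under nilotinib and 5.75-fold lower under GNF-2. BIK was 2.30-fold, 3.54-fold and 4.91-fold higher, in the same order.

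Across the groups limma tested these differences against the spread within the 2 groups of 3 libraries, which leaves 4 residual degrees of freedom. In the GNF-2-resistant group against the vehicle, 11 of 11843 genes passed an adjusted p of 0.05 (0.0929%), and 0 of the 10 members did; 4 members had an unadjusted p under 0.05, as did 11.1% of all genes. BIK was higher by 2.37 (SE 0.42, interval 1.37 to 3.38, limma adjusted p = 0.362), with 17.7 ± 6.95 FPKM (SD, n = 3) against 2.46. BCL2A1 was lower, at a difference of -3.33 (SE 0.65, interval -4.89 to -1.77, limma adjusted p = 0.42), with 1.74 ± 1.91 FPKM (SD, n = 3) against 22.6. Without the GNF-2 population, BCL2A1 passed (difference -3.86, limma adjusted p = 0.0433). BCL2L11 (-1.004, SE 0.30) and MCL1 (-0.59, SE 0.20) were the other 2 with an unadjusted p under 0.05, and their adjusted p in limma was 0.426 and 0.441. All 3 libraries were above the vehicle for BBC3, BIK, BID and BAX (33.8% of genes) and below it for MCL1, BCL2A1 and BCL2L11 (26.2% of genes).

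In the catalytic-resistant group against the same vehicle, 4 genes passed in limma (0.0338%) and 0 of the members; 2 members, BCL2L11 and BIK, had an unadjusted p under 0.05, against 2.69% of all genes. BCL2L11 was lower, at -1.35 (SE 0.30, interval -2.07 to -0.63), with 3.73 ± 0.240 FPKM (SD, n = 3) against 11.0. BCL2A1 was also lower, at -1.52 (SE 0.65, interval -3.07 to 0.04), and BIK was higher, at 1.18 (SE 0.42, interval 0.18 to 2.19). The limma adjusted p of all 3 was 1. All 3 libraries were above the vehicle for BIK and BID (28.8% of genes) and below it for BCL2, BCL2A1, BCL2L11 and BAX (21.2% of genes). Over the members, 5 were higher and 5 lower with a median of 0.07, where all genes had a median of 0.02; in the GNF-2-resistant group 7 were higher and 3 lower with a median of 0.14, where all genes had 0.04.

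The direct contrast of the inhibitor classes asks whether cells that escaped the catalytic inhibitors differ from those that escaped GNF-2. Here 4 genes passed in limma (0.0338%), 0 of them members, and 4 members had an unadjusted p under 0.05 (4.87% of all genes did). BCL2A1 was higher in the catalytic-resistant libraries, 7.28 ± 0.599 against 1.74 ± 1.91 FPKM (SD, n = 3 each), a difference of 1.81 (SE 0.46, interval 0.71 to 2.91, limma adjusted p = 0.846). BIK was lower, 6.94 ± 1.58 against 17.7 ± 6.95 FPKM (SD, n = 3 each), a difference of -1.19 (SE 0.30, interval -1.90 to -0.48, limma adjusted p = 0.846). BAX was lower by a smaller amount, 28.7 ± 0.557 against 39.6 ± 8.31 FPKM (SD, n = 3 each), at -0.43 (SE 0.17, limma adjusted p = 0.846). The groups did not overlap for MCL1 and BCL2A1, which were higher (4.08% of genes), nor for BIK and BAX, which were lower (6.82%). BCL2L11 (-0.34, SE 0.21, interval -0.85 to 0.16) and PMAIP1 (0.24, SE 0.45, interval -0.85 to 1.32) overlapped between the classes. The count of genes that passed was 1 without the imatinib population, 10 without the GNF-2 population and 9 without Clone 3.

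**Figure D3:**
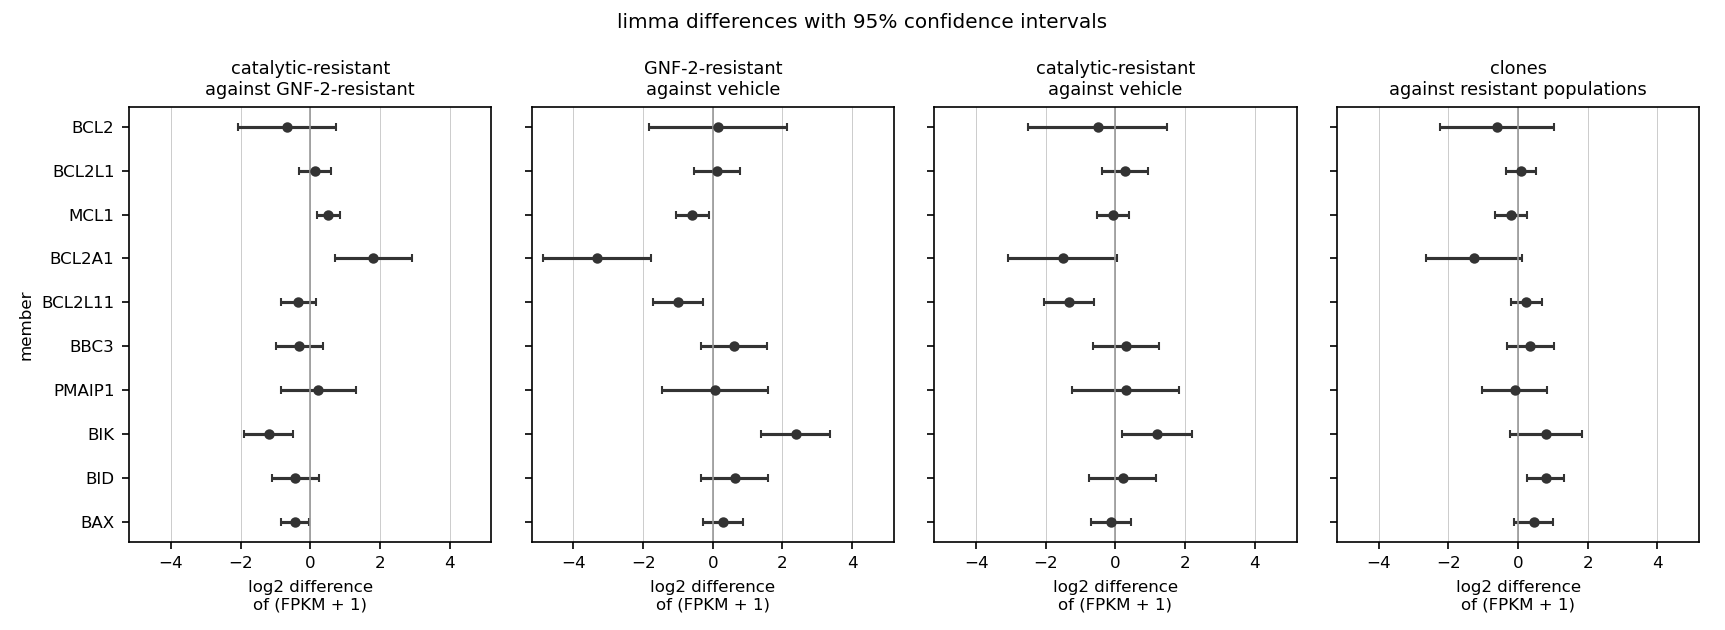
Limma differences in log2(FPKM + 1) with 95% confidence intervals for the 10 members in the 4 comparisons (1 panel each). Points to the right of 0 are higher in the group named first; the intervals are not adjusted for the number of genes. In the GNF-2-resistant group against the vehicle BIK lies at 2.37 and BCL2A1 at -3.33.

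The contrast of the 4 clones with the 3 resistant populations was made because an earlier look at these data set the clones apart. In limma 883 genes passed (7.46%), 199 higher in clones (1.68%) and 684 lower (5.78%), and 0 of the members did; 1 member, BID, had an unadjusted p under 0.05 (27.1% of all genes did). The split of these calls moves with scaling: rescaling by median ratios gave 390 higher and 471 lower, and it moved the median of all genes from -0.08 to 0.03. BID came closest, with 47.6 ± 14.4 FPKM in clones (SD, n = 4) against 26.2 ± 1.37 in populations (SD, n = 3), a difference of 0.79 (SE 0.23, interval 0.26 to 1.32, limma adjusted p = 0.0762). It was the only member with no overlap between clones and populations (8.17% of genes were higher without overlap; 18.1% were lower, and 0 members). BCL2A1 was lower at -1.27 (SE 0.60, limma adjusted p = 0.218). Without Clone 3 both passed, BID at 0.94 (limma adjusted p = 0.048) and BCL2A1 at -1.82 (limma adjusted p = 0.0296). The mean of BCL2 was nearly the same in clones (23.2 ± 27.8 FPKM, SD, n = 4) and populations (23.3 ± 2.74, SD, n = 3), while its spread was not. That clone mean rests on Clone 1 (64.6 FPKM). Clones 2, 3 and 4, at 12.3, 10.8 and 5.10 FPKM, were below all 3 populations. On the log2(FPKM + 1) scale the BCL2 difference was -0.62 (SE 0.70, limma adjusted p = 0.617), and -1.30 to -0.16 over the alternatives. Over the members 6 were higher and 4 lower with a median of 0.16, against -0.08 for all genes. The summed myeloid blast markers were 93.6 to 134.8 FPKM in the clones and 129.5 to 156.0 in the populations, and 1 of that list, PTPRC (CD45), was called lower in the clones (16.5 to 35.3 against 58.3 to 66.0 FPKM, limma adjusted p = 0.0307). CSF3R, a granulocyte marker, was also called lower, from a low level (0.0747 to 0.253 against 1.35 to 2.49 FPKM, limma adjusted p = 0.0208). The part of these markers in the differences was not tested. With the population of origin as a block, an alternative chosen after the data were seen, 13 genes passed in place of 883 (1925 had an unadjusted p under 0.05), again with 0 members; BID was at 0.72 (limma adjusted p = 0.283).

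Each clone was also set beside the population it came from, as single libraries with no test. Clone 1 was at least 2-fold above the GNF-2 population for BCL2 (2.44-fold) and BID (2.13-fold), 2 of the 9 members with at least 5 FPKM in the higher library, where 12.1% of genes were that far apart. Clone 2 was 2.11-fold above it for BIK and lower for BCL2 (2.15-fold) and PMAIP1 (2.45-fold), 3 of 9 (13.7% of genes). Clone 4 was 2.39-fold above it for BID and 5.19-fold below it for BCL2, 2 of 8 (13.8% of genes). Clone 3 was within 2-fold of the imatinib population for all 9 such members (13.6% of genes were not). BCL2 thus differed at least 2-fold between the GNF-2 population and each of the 3 clones drawn from it, upward in 1 and downward in 2. After rescaling by median ratios BBC3 in Clone 1 (2.22-fold), PMAIP1 in Clone 3 (2.08-fold) and BIK in Clone 4 (2.00-fold) were also at least 2-fold above the source population, which makes 3 members for each of Clones 1, 2 and 4 and 1 for Clone 3.

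FPKM is scaled by transcript length, so levels of different genes can be added within a library. MCL1 was first of the 10 in all 8 libraries, and PMAIP1 was second in 7 of them; in Clone 2 BID took that place. MCL1 made up 47.9% (Clone 1) to 70.4% (Clone 3) of the summed FPKM of the survival members. BCL2 made up 36.9% of that sum in Clone 1 and 3.34% in Clone 4, and BCL2A1 went from 11.0% in the vehicle to 0.227% in Clone 1. Summed FPKM of the survival members was 2.04 times that of the BH3-only members in the vehicle and 2.09 times in the imatinib population. That ratio was 1.29 under nilotinib, 1.28 under GNF-2, 1.002 in Clone 1, 1.03 in Clone 2, 1.40 in Clone 3 and 0.891 in Clone 4. Over these members catalytic-resistant and GNF-2-resistant libraries did not overlap on it, but the nilotinib (1.29) and GNF-2 (1.28) populations were almost equal. Other family genes with these roles are not in the sums. Among them are the survival gene BCL2L2 (7.03 to 16.4 FPKM) and the BH3-only genes BAD (39.3 to 60.5) and BMF (2.40 to 9.99). The ratio with them was not computed, so its values and the lack of overlap hold for these members only. The order of BCL2 and BCL2L1 differed between clones: BCL2 over BCL2L1 was 2.45 in Clone 1 and 0.132 in Clone 4. These are sums of transcripts and say nothing about the proteins.

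**Figure D4:**
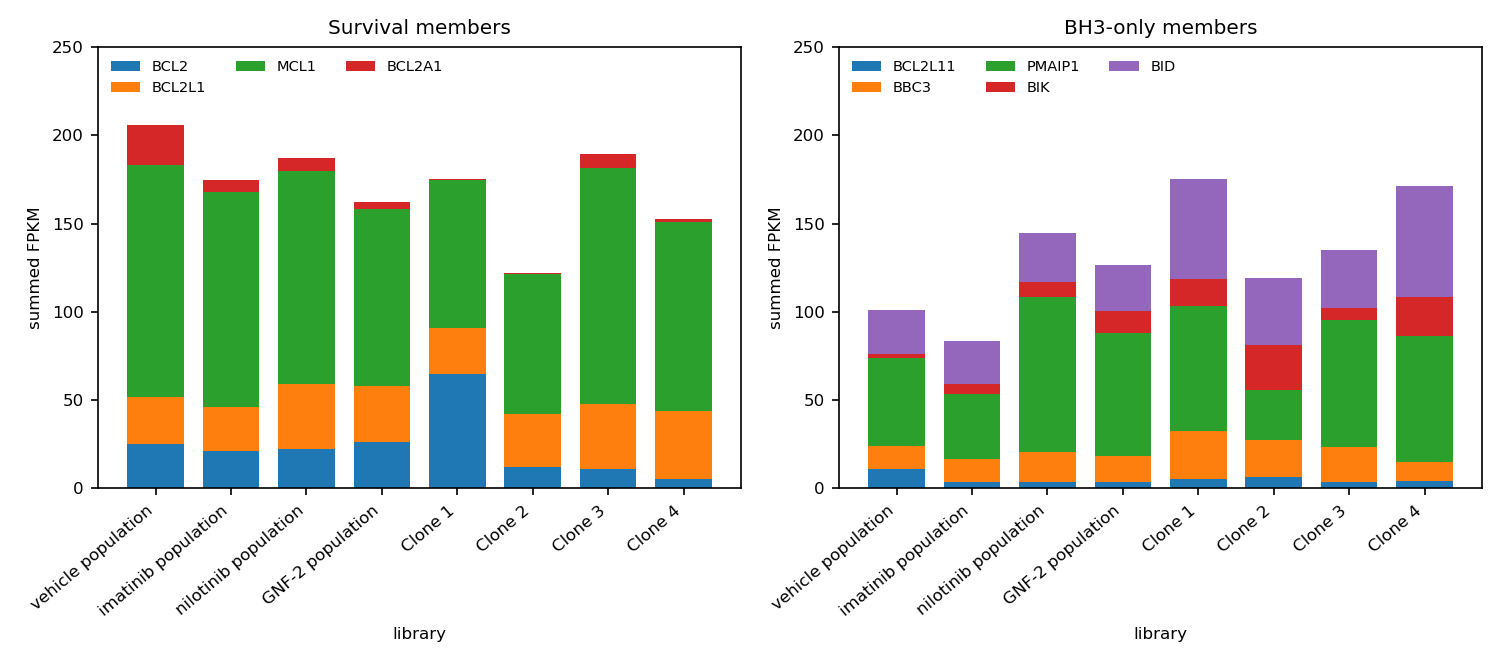
Summed FPKM of the 4 survival members (left) and the 5 BH3-only members (right) in each library, stacked by gene, both axes from 0. MCL1 is the largest block on the left in all 8 libraries, and the right-hand stack is lowest in the imatinib population.

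The rest of the pathway was read from lists of genes by role. Of 13 other family genes 8 could be tested, and 0 passed in any of the 4 limma comparisons; 1 had an unadjusted p under 0.05 for GNF-2-resistant against vehicle (11.1% of all genes did) and 2 for clones against populations (27.1% of all genes). For GNF-2-resistant against vehicle 3 were higher and 5 lower with a median of -0.18, against 0.04 for all genes. BNIP3 and BNIP3L, mitophagy genes that answer low oxygen, were abundant, and lower in the GNF-2-resistant libraries than in the vehicle: BNIP3 had 660.4 FPKM in the vehicle against 298.3 ± 127.4 in the GNF-2-resistant libraries (SD, n = 3), and BNIP3L had 275.5 against 132.1 ± 31.4 (SD, n = 3). Neither passed (limma adjusted p = 0.507 and 0.441). BMF, a BH3-only gene, was at 7.55 FPKM in the vehicle and 4.62 ± 1.49 in the GNF-2-resistant libraries, and BAK1 at 11.6 and 15.7 ± 2.01 (SD, n = 3 each; limma adjusted p = 0.547 and 0.507). HRK was listed at 0 in all 8 libraries, and BOK and BCL2L10 were under the testing limit.

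Of the 22 genes for caspases, the apoptosome and their inhibitors, all were tested. Only CYCS, which encodes the cytochrome c released from mitochondria, passed, and only for clones against populations, where 7.46% of all genes passed. CYCS had 43.9 ± 9.58 FPKM in clones (SD, n = 4) against 24.7 ± 1.83 in populations (SD, n = 3). The difference was 0.78 (SE 0.17, limma adjusted p = 0.0376). CASP8, the initiator caspase that cuts BID, had 43.5 FPKM in the vehicle, 29.3 ± 1.38 in catalytic-resistant and 20.1 ± 11.0 in GNF-2-resistant libraries (SD, n = 3 each), with a limma adjusted p of 0.458 for the latter. CFLAR, which holds caspase-8 in check, had 28.0, 19.7 ± 4.74 and 15.0 ± 4.29 FPKM in the same order (limma adjusted p = 0.458 for the latter). AIFM1, DFFB and CASP9 were lower in catalytic-resistant than GNF-2-resistant libraries without overlap, by -0.50, -0.43 and -0.35, and none passed (limma adjusted p = 0.846 for each). There 5 of the 22 were lower without overlap and 0 higher, where 6.82% and 4.08% of all genes were. In that contrast 7 of the 22 were higher and 15 lower, with a median of -0.05 against -0.01 for all genes. DFFB, a nuclease that cuts DNA in dying cells, had 2.08 FPKM in the vehicle and 4.58 ± 0.727 in the GNF-2-resistant libraries (SD, n = 3; limma adjusted p = 0.44). BIRC3, an inhibitor of apoptosis that answers NF-kB, had 2.97 FPKM in the vehicle and between 0.212 and 2.37 with resistance. It was lower in clones than populations without passing (-0.69, SE 0.27, limma adjusted p = 0.154). CFLAR (-0.57) was lower in the clones as well, without overlap and without passing (limma adjusted p = 0.0972). Without overlap 1 of the 22 was higher in the clones and 4 were lower, against 8.17% and 18.1% of all genes. For clones against populations 12 of the 22 were higher and 10 lower, with a median of 0.06 against -0.08 for all genes.

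Among 10 genes for the turnover of MCL1, BIM and NOXA, DYNLL1 passed for clones against populations, as did 7.46% of all genes. It encodes the dynein light chain that can tether BIM and was higher in the clones, 200.2 ± 14.9 FPKM (SD, n = 4) against 123.1 ± 19.1 (SD, n = 3), a difference of 0.71 (SE 0.14, limma adjusted p = 0.0278). USP9X, which removes ubiquitin from MCL1, was 24.5 ± 2.70 FPKM in catalytic-resistant and 21.0 ± 2.06 in GNF-2-resistant libraries (SD, n = 3 each; limma adjusted p = 0.847). The list was evenly divided in 3 of the comparisons, with 5 higher and 5 lower, and had 6 higher and 4 lower between the inhibitor classes. All GNF-2-resistant libraries lay on 1 side of the vehicle for 8 genes of the list, 4 above it (33.8% of all genes) and 4 below (26.2%). All catalytic-resistant libraries did so for 5, with 3 above (28.8% of all genes) and 2 below (21.2%). The largest such differences, up to 4 a comparison and beside those given, were DYNLL2 in the class contrast (-0.30), DYNLL1, BTRC, BAG3 and DYNLL2 for GNF-2-resistant against vehicle (0.66, 0.64, -0.56 and 0.44), BTRC, CUL5, FBXW7 and RNF7 for catalytic-resistant against vehicle (0.39, 0.31, -0.28 and -0.21) and FBXW7 for clones against populations (-0.36). None of these passed.

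Of 16 transcription factors and regulators known to act on members 15 were tested. NFKB2, an NF-kB subunit, passed for clones against populations, as did 7.46% of all genes. NFKB2 was lower in the clones, 22.6 ± 4.32 FPKM (SD, n = 4) against 41.0 ± 3.47 (SD, n = 3). The difference was -0.85 (SE 0.16, limma adjusted p = 0.0277). The calls of CYCS, DYNLL1 and NFKB2 rest on several single libraries, and none of them held with the population of origin as a block (limma adjusted p = 0.234, 0.187 and 0.208, in that order). Without the imatinib population the limma adjusted p was 0.14, 0.0984 and 0.0984, in that order, without the nilotinib population 0.141, 0.114 and 0.122, and without Clone 1 0.0902, 0.0592 and 0.0644. CYCS also did not pass without the GNF-2 population (limma adjusted p = 0.0841) or Clone 3 (0.0598), NFKB2 not without the GNF-2 population (0.0704), and DYNLL1 not without Clone 4 (0.0523). MYC, whose product can raise BIM and BAX, had 127.1 FPKM in the vehicle, 241.1 ± 42.2 in catalytic-resistant and 269.4 ± 81.1 in GNF-2-resistant libraries (SD, n = 3 each), and did not pass (limma adjusted p = 1 and 0.441). STAT5B was 31.0 ± 4.55 FPKM in clones (SD, n = 4) and 43.1 ± 3.41 in populations (SD, n = 3; limma adjusted p = 0.0789). ATF3 (-0.90) was lower and NFKB1 (0.40) higher in the clones without overlap, and neither passed. Of the 15, 1 was higher and 3 were lower without overlap, against 8.17% and 18.1% of all genes. In the GNF-2-resistant group FOXO1 (-0.92), TRIB3 (0.74) and NFKB2 (-0.69) did not overlap with the vehicle and did not pass. The same held for ATF3 (0.55), RELB (0.28) and STAT5A (0.27) in the catalytic-resistant group. All GNF-2-resistant libraries lay above the vehicle for 5 of the 15 and below it for 4 (33.8% and 26.2% of all genes). All catalytic-resistant libraries did so for 4 and 2 (28.8% and 21.2%). FOXO1 was low, at 1.88 FPKM in the vehicle, 1.63 in the GNF-2 population, 0.129 in Clone 1 and 0.191 in Clone 2. The list had 7 higher and 8 lower for clones against populations, with a median of -0.09 against -0.08 for all genes.

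Of 16 other p53 pathway genes 12 were tested, and 0 passed in any limma comparison; 2 had an unadjusted p under 0.05 for GNF-2-resistant against vehicle and 1 for clones against populations, where 11.1% and 27.1% of all genes did. Directions were mixed, with 7 higher and 5 lower (median 0.23, all genes 0.04) for the former and 4 higher and 8 lower (median -0.08, as for all genes) for the latter. CDKN1A, the p53 target that stops the cell cycle, had 55.6 FPKM in the vehicle, 28.5 ± 17.3 in catalytic-resistant and 12.7 ± 5.82 in GNF-2-resistant libraries (SD, n = 3 each; limma adjusted p = 1 and 0.44 against the vehicle, in that order). BTG2 had 14.4 FPKM in the vehicle and 3.11 ± 2.33 in GNF-2-resistant libraries, while AEN, another p53 target, ran the other way, with 3.15 FPKM against 8.84 ± 0.870 (SD, n = 3 each; limma adjusted p = 0.475 and 0.438). Against the vehicle, TNFRSF10B (-1.58) in the GNF-2-resistant group and ZMAT3 (0.59), AEN (0.60) and MDM2 (-0.47) in the catalytic-resistant group were without overlap. All GNF-2-resistant libraries lay above the vehicle for 4 of the 12 and below it for 5 (33.8% and 26.2% of all genes). All catalytic-resistant libraries did so for 3 and 2 (28.8% and 21.2%). Also without overlap were GADD45A (-0.96) in clones against populations and AEN (-0.64) and SESN1 (-0.58) between the classes. Such lower genes were 1 and 2 of the 12, against 18.1% and 6.82% of all genes. None of these passed. BBC3, PMAIP1 and BAX are known p53 targets as well. In Clone 2, where CDKN1A was lowest (6.30 FPKM), PMAIP1 was also at its lowest (28.6), while BBC3 was at 21.0, the second highest of its 8 values.

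For the 5 members with an SD of at least 0.5 on the log2(FPKM + 1) scale, the genes of most similar pattern were found as those with the smallest SD of the difference from the member over the 8 libraries, among 10915 candidates. For BCL2A1 they were PHLDA1 (SD of the difference 0.45), IL1RAP (0.45) and TMEM71 (0.46). IL1RAP, a co-receptor for interleukin-1 known as a surface marker of chronic myeloid leukemia stem cells, had 46.0 FPKM in the vehicle, 11.6 to 20.3 in the 3 resistant populations, 24.1 in Clone 3 and 2.32 to 6.09 in the other clones. For BCL2 they were SEPT1 (0.40), MZB1 (0.46) and ATP8B4 (0.49), each of them lower in Clones 2, 3 and 4 than in any other library. For BIK they were PRR5 (0.28), C2orf88 (0.38) and TRAF4 (0.38). For BID they were SAP30L (0.14), ATP1B3 (0.14) and NAPA (0.16), the tightest set, and for PMAIP1 they were NLRC3 (0.19), C2orf18 (0.21) and PRRT3 (0.24). The measure picks the best of many genes over few libraries and is a description only.

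**Figure D5:**
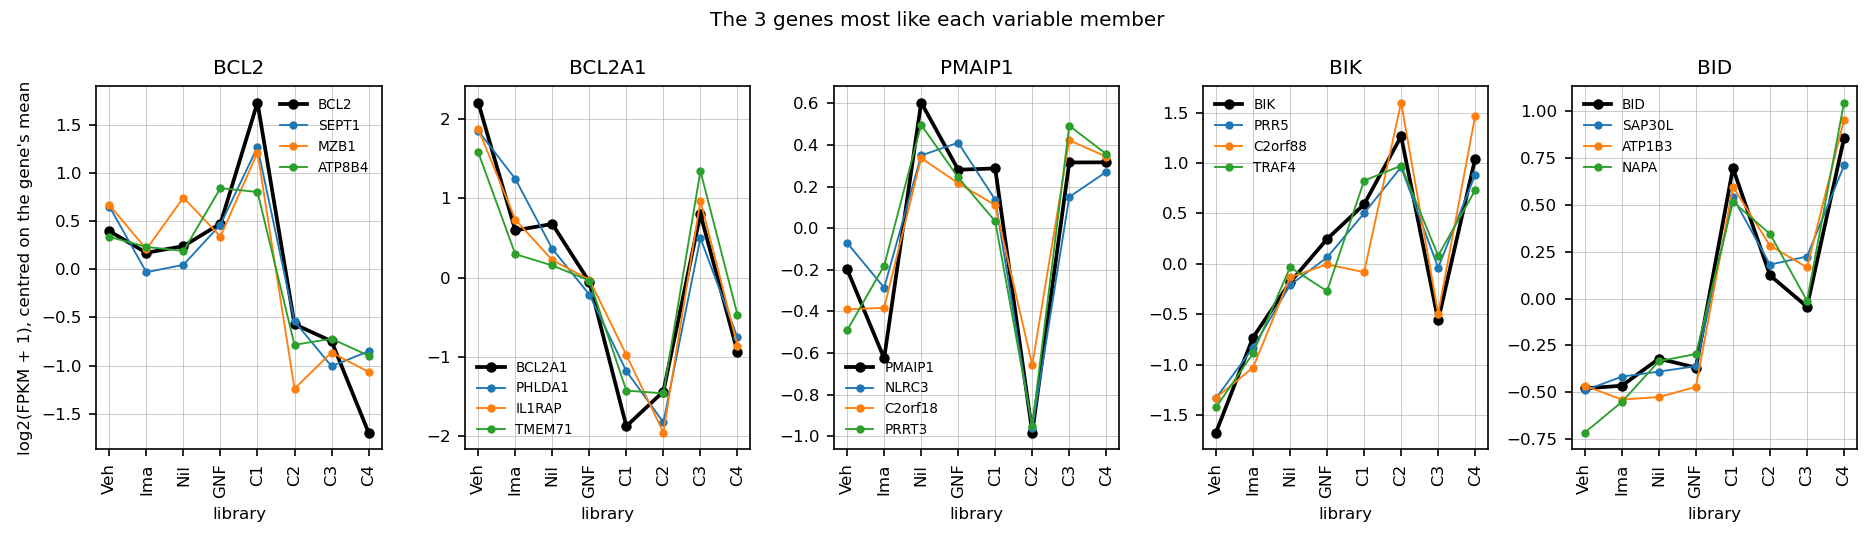
Log2(FPKM + 1), centred on each gene's mean over the 8 libraries, for the 5 most variable members (black) and the 3 genes most like each of them (colors). Libraries run from the vehicle (Veh) through the 3 resistant populations to Clones 1 to 4, and lines join the libraries only to guide the eye. BCL2 itself peaks in Clone 1, and PMAIP1 has its lowest point in Clone 2.

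Stress genes from the lists were set beside PMAIP1 after their values were seen. SESN2, induced by p53 and by ATF4, had 3.75 FPKM in the vehicle, 2.38 under imatinib and 2.86 in Clone 2, and 10.6 to 13.8 in the other 5 resistant libraries. PMAIP1 was likewise lowest in Clone 2, the imatinib population and the vehicle. TRIB3, an ATF4 target, was lowest in the same 3 libraries, at 18.1 FPKM under imatinib, 26.0 in the vehicle and 26.6 in Clone 2. DDIT3, which encodes CHOP, followed them in 7 libraries but was listed at 0 in Clone 4, against 13.5 to 42.5 FPKM elsewhere. ATF4 itself did not share the pattern, with 520.3 FPKM in Clone 2 and 429.2 under imatinib against 443.9 in the vehicle. ATF3 shared it in part. It was lowest in Clone 2 (4.59 FPKM) and the vehicle (9.54), but the imatinib population (11.1) was above Clones 1, 3 and 4 (10.9 each). GADD45A did not share it, being highest in the imatinib population (45.3 FPKM).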

How the data were processed

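RNA-seq libraries (Illumina) were made from total RNA of 8 KCL-22 samples. The authors deposited FPKM, 1 per gene and library; TopHat 1.3, Cufflinks 1.3 and GRCh37 are named in the submitters' processing notes. The file header gives no unit, which was taken from the tool and the values. Positions are those of the deposited table on GRCh37, with 1 added to starts because they look counted from 0. Left out were 70 entries with a missing value.

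Values were tested as log2(FPKM + 1) with limma 3.58.1 (R 4.3.3; lmFit, then eBayes with a mean-variance trend). Models held 1 mean per resistance group or per kind (vehicle, population, clone) over all 8 libraries, with 4 and 5 residual degrees of freedom, and 11843 genes whose FPKM averaged 1 or more. The single libraries of the vehicle and of Clone 4 borrow the spread of the other groups. Tests are two-sided, with Benjamini-Hochberg adjustment over all genes and a threshold of 0.05. The code was tested on simulated data. Single libraries were compared by a fold of 2 where the higher one had 5 FPKM or more. Depth came from 621 intronless genes. Promoters are RefSeq's, matched by symbol: 6 members had 1 window. Python 3.11.15 made tables and figures.

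All members were named in every comparison. From each list the genes that passed were named, then up to 4 without overlap. A few more were named after their values were seen (HRK, BOK, BCL2L10, BCL2L2, BAD and the genes set beside PMAIP1). Some listed genes are not reported here. The members and lists were chosen with earlier results of these data known. Alternatives were pseudocounts of 0.1 and 5, no filter, a mean FPKM of at least 5, genes above 0 in all libraries, rescaling by median ratios, quantile normalization, the other grouping as a term, no variance trend and leaving out each library. The population of origin as a block, for clones against populations, was added after the data were seen.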

Additional observations from a re-analysis of the deposited data

Results flagged for a closer look

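PMAIP1 in Clone 2 stood apart from the other clones. Its 28.6 FPKM lay below 70.4, 71.8 and 71.8 FPKM in Clones 1, 3 and 4, and the gap to the nearest of them was 0.978 of the range of the 4, above Dixon's 95% critical value. The 10 members were each tested this way among the clones, and chance flags about 1 group in 20.

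BAX lay on opposite sides of the vehicle (31.7 FPKM) in the 2 inhibitor classes. It had 28.4, 29.4 and 28.5 FPKM in the catalytic-resistant libraries and 33.9, 49.2 and 35.9 FPKM in the GNF-2-resistant ones. Of all genes, 21.2% were below the vehicle in every catalytic-resistant library and 33.8% above it in every GNF-2-resistant one. The share with opposite sides was not counted. On the log2(FPKM + 1) scale the mean FPKM of the classes differed by -0.45, catalytic-resistant less GNF-2-resistant. The limma test of the difference did not pass (-0.43, SE 0.17, adjusted p = 0.846), and after rescaling by median ratios the GNF-2 population moved below the vehicle (31.0 against 32.3 FPKM).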

How the results depend on the processing

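No pairing by replicate was possible because the labels give no replicate numbers shared between groups. Clones and their source populations could be paired through the origin the labels give. That was done only in the single-library comparisons and in the alternative with the population of origin as a block. The reported fit of clones against populations leaves that pairing out. Of 560 values of members under the alternatives, 547 kept their direction and side of the threshold, 10 changed direction and 3 changed side. PMAIP1 changed direction for catalytic-resistant against GNF-2-resistant without the nilotinib population (-0.017) or Clone 2 (-0.19; -0.19 to 0.60 leaving out each library), for GNF-2-resistant against vehicle without the GNF-2 population (-0.15) or Clone 1 (-0.15; -0.15 to 0.48), and for clones against populations when rescaled by median ratios (0.013), with the population of origin as a block (0.13) or without the nilotinib population (0.16) or Clone 2 (0.22; -0.46 to 0.22). BCL2 did so for GNF-2-resistant against vehicle without Clone 1 (-0.44; -0.44 to 0.71), and BCL2L1 for clones against populations without the imatinib population (-0.061; -0.061 to 0.21). The 3 that came to pass in limma were BCL2A1 in GNF-2-resistant against vehicle without the GNF-2 population (adjusted p = 0.0433; 0.0433 to 0.62 over its alternatives) and, without Clone 3, BCL2A1 (0.0296; 0.0296 to 0.575) and BID (0.048; 0.048 to 0.283) in clones against populations. CYCS, DYNLL1 and NFKB2 did not pass with no filter (adjusted p = 0.114, 0.0702 and 0.0862), nor CYCS and DYNLL1 with resistance group as a term (0.0827 and 0.106).

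The number of genes called moved more, and the cause was not tested. For catalytic-resistant against GNF-2-resistant (4) it was 1 with no filter, 2 with a mean of at least 5 FPKM, 0 with genes above 0 in all libraries (limma; 577 at an unadjusted p under 0.05 in the reported fit) and 1 to 10 leaving out each library. For GNF-2-resistant against vehicle (11) it was 253, 7, 0 and 1 to 13 in the same order, lowest without Clone 1 and 3 without Clone 2. For catalytic-resistant against vehicle (4) it was 243, 2, 0 and 0 to 0, and 1 when rescaled or quantile normalized. For clones against populations (883) it was 320 with no filter, 238 with resistance group as a term, 13 with the population of origin as a block (3 residual degrees of freedom) and 128 (without the nilotinib population) to 1086 (without Clone 2), with 200 without the imatinib population, 276 without the GNF-2 population, 264 without Clone 1 and 556 without Clone 4. With a limit of 1 FPKM, genes at least 2-fold from the vehicle numbered 592 (imatinib), 917 (nilotinib) and 1411 (GNF-2), and from the source population 1891 (Clone 1), 1925 (Clone 3) and 2029 (Clone 4). Leaving out the vehicle was not run, since it is the only library of its group. A pseudocount of 0.1 or 5 put BCL2A1 at 2.55 or 0.90 between the classes (1.81 reported) and at -4.17 or -2.07 for GNF-2-resistant against vehicle (-3.33 reported). Depth limits BCL2A1 most, at about 14 fragments in Clone 1.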
